A study of Homo sapiens with 6 samples.

Results

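The EGR and AP-1 transcription factors described here are 10 genes, EGR1, EGR2 and EGR3, FOS, FOSB, FOSL1 and FOSL2, and JUN, JUNB and JUND, taken by symbol from the 30330 Ensembl genes in the files. Each symbol matched 1 gene. They were measured by RNA-seq in 3 libraries of H1975/OSI, a line made resistant to osimertinib, and 3 control libraries of NCI-H1975, the lung adenocarcinoma line it came from. Osimertinib inhibits the kinase of the epidermal growth factor receptor (EGFR). Per the labels, the resistant line was selected with 0.03, 0.1, 0.3, 1 and 3 µM osimertinib over 7 months, and the question was what its transcripts show about resistance. Whether osimertinib was present at harvest is not stated. The resistant line is a single selected population. The labels do not say whether replicates are separate cultures, and p-values here cover library-to-library spread alone, which may be technical.

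EGR1, FOS and several other EGR and AP-1 factors, though not all, are encoded by early response genes. Growth factor receptors switch these on through the RAS, RAF, MEK and ERK kinases within minutes and without new protein synthesis. EGR proteins bind GC-rich DNA through zinc fingers. AP-1 is a dimer of basic leucine zipper proteins in which a FOS family protein pairs with a JUN family protein, while JUN proteins can also pair with each other. In lung adenocarcinoma with mutant EGFR, the receptor drives this pathway, and EGR1, FOS and FOSL1 are used as readouts of ERK activity.

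All values are normalized read counts, meaning reads scaled by a size factor for each library. Resistant libraries held 15174126 to 16276518 reads and control libraries 15813497 to 16588479. Resistant library 1 stood apart, with a chi-square per gene of 10.8 from resistant 2 and 12.1 from resistant 3, where resistant 2 and 3 had 2.32 and control libraries 2.43 to 3.66. Mitochondrial reads made up 5.33% to 5.66% of resistant and 6.46% to 7.34% of control libraries. For the marker counts that follow, 20.4% of all tested genes rose and 21.1% fell. Of 9 lung adenocarcinoma and epithelial markers, 2 rose and 4 fell, with summed levels of 38049 to 42464 in resistant and 47569 to 50264 in control libraries. KRT7 and NKX2-1 marked both lines, EPCAM averaged 17.6 ± 2.03 in resistant and 379 ± 21.9 in control libraries (SD, n = 3 each), and the surfactant gene SFTPB was near 0 in both. Of 6 fibroblast markers tested, 4 rose, with sums of 33097 to 36279 in resistant and 5058 to 6076 in control libraries. COL1A2 made up most of the resistant sum and COL1A1 most of the control sum, while LUM and THY1 were near 0. LUM, with no reads in control libraries, could only count as a rise. The tested leukocyte markers (1 higher and 1 lower of 3) summed to 72.9 to 112 in resistant and 109.9 to 132 in control libraries with LYZ near 0, and the endothelial ones (1 higher, CDH5, and 1 lower of 4) to 557 to 759 in resistant and 289.6 to 332 in control libraries with VWF and KDR near 0.

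The 10 members did not move as a block. EGR1, EGR2, EGR3, FOSL1 and FOS fell in the resistant line, FOSB, JUND and JUNB rose, and FOSL2 and JUN did not pass the test. EGR1 changed most, with a mean 20.7-fold lower, whereas the JUN genes and FOSL2 had ratios of depth-scaled reads, resistant over control, of 0.973 to 1.24. By limma-trend with Benjamini-Hochberg adjustment over 24560 tested genes at a threshold of 0.05, 5 of 10 members were lower and 3 higher, against 21.1% and 20.4% of all genes, or 41.5% in either direction. The groups did not overlap for 8 of 10 members, against 50.1% of all genes. All 10 members passed the filter on low values, EGR3 through 5 of 6 libraries and the other 9 in every library. In cultured cells measured in bulk, fewer expressing cells and less RNA per cell cannot be told apart.

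**Figure D1:**
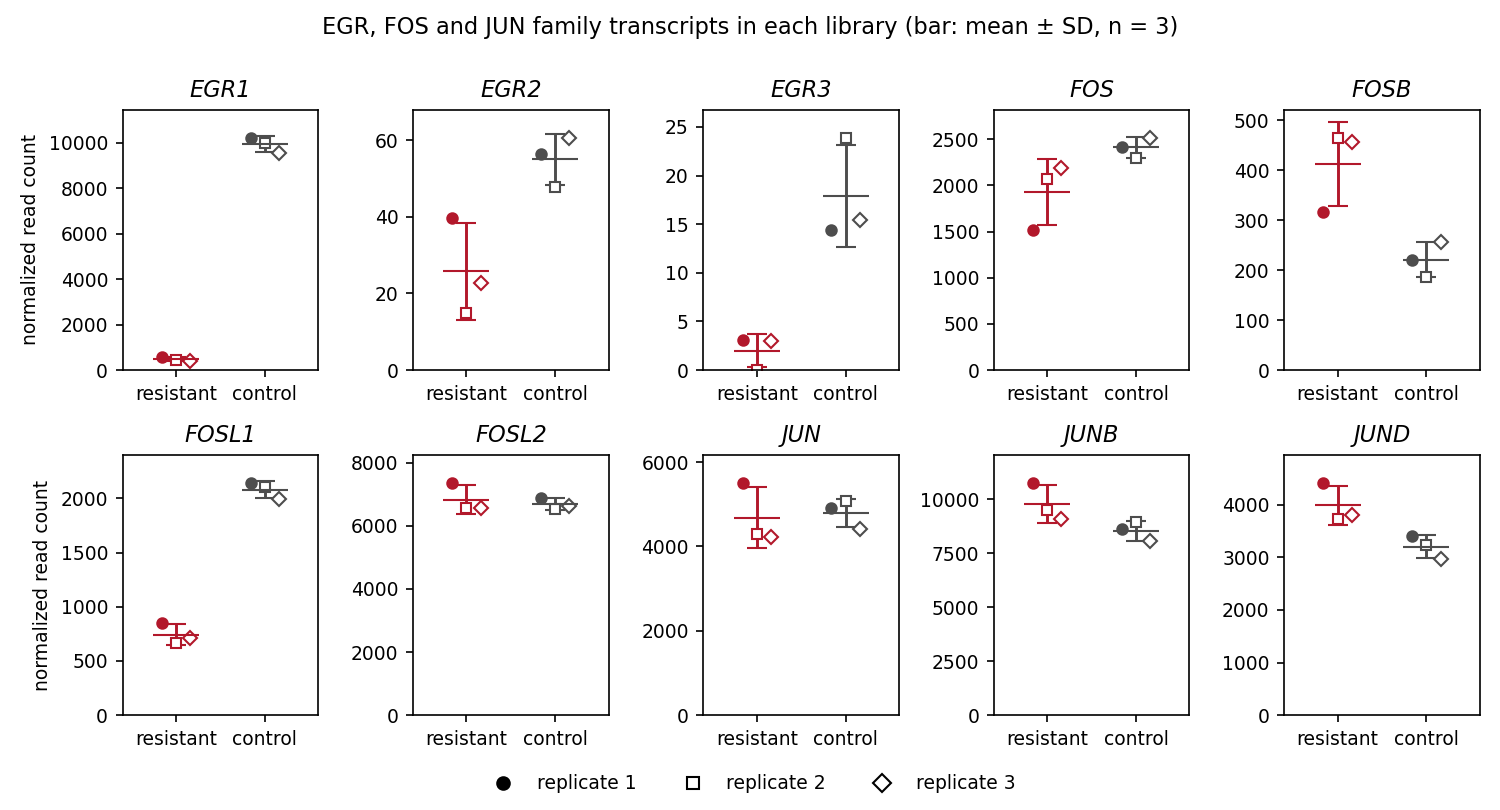
Normalized read counts (vertical axis, linear from 0) of the 10 genes in the 3 resistant and the 3 control libraries, with a symbol per replicate and a bar for the mean ± SD. EGR1 lies between 401 and 590.5 in resistant libraries and between 9540.3 and 10228 in control libraries, while FOSL2 and JUN overlap between the groups.

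EGR1, a zinc finger activator induced by growth factors, stress and injury (ENSG00000120738, chromosome 5, 138465490 to 138469315, GRCh38), was at 590.5, 449 and 401 in resistant libraries 1 to 3. In the control libraries it was at 10228, 10007 and 9540.3. Every resistant library was thus far below every control library. The log2 fold change was -4.39 ± 0.12 SE (limma adjusted p = 1.67e-10), and over the 16 other settings tried it ranged from -4.55 to -4.27. Only 25 of the 24560 tested genes, EGR1 included, had a log2 fold change this low or lower. Per kilobase of exon, EGR1 ranked 3607th to 4999th among 16378 protein-coding genes in resistant libraries, against 122nd to 138th in control libraries.

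EGR2 and EGR3, close relatives of EGR1 that bind similar DNA, were expressed at far lower levels and also fell. EGR2 (ENSG00000122877, chromosome 10, 62811996 to 62919900), known for its part in myelination and in T cells, was at 39.8, 14.8 and 22.7 in resistant and 56.5, 47.8 and 60.7 in control libraries. Resistant library 1 lay closest to the control range without reaching it. On the log2 scale the change was -1.17 ± 0.29 SE (limma adjusted p = 0.00189). EGR3 (ENSG00000179388) rested on 3, 0 and 3 reads in resistant libraries, against 14, 23 and 16 reads in control libraries. The ratio of summed reads, resistant over control and scaled for depth, was 0.109, with a 95% exact interval of 0.0384 to 0.254 that covers counting error only (limma log2 fold change -2.87, adjusted p = 0.000157). The fitted change of EGR3 depends on the pseudocount and was -4.15 with 0.1 in place of 1. A noncoding gene on the strand opposite to EGR3, AC055854.1, had no reads in resistant libraries and 2.08 to 4.11 in control libraries. The sources used here do not say whether counting used strand. Summed per kilobase, the EGR family stood at 160.3 ± 34.6 in resistant and 3181 ± 111 in control libraries (SD, n = 3 each), and EGR1 made up 95.5 ± 1.57% of it in resistant and 99.4 ± 0.0486% in control libraries.

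The promoters of EGR1 and EGR2, which both fell, are shown beside those of FOS and FOSB, which moved in opposite directions. Each window runs from 250 bases before to 50 bases after a RefSeq transcription start (GRCh38.p14) and is written 5′ to 3′ on the strand of the gene. Windows of 8 of the 10 members were used, and those of EGR3 and FOSL1, which also fell, were not searched. EGR1 lies at chr5:138465229-138465528 (plus strand), EGR2 at chr10:62816317-62816616 (minus strand, start 3 of the 3 listed), FOS at chr14:75278578-75278877 (plus strand) and FOSB at chr19:45467746-45468045 (plus strand). Capitals mark matches to the CArG box, where serum response factor binds, to the CRE core TGACG, to the EGR site GCGNGGGCG, to the AP-1 site TGANTCA and to the TATA box TATAAA, on either strand.
EGR1: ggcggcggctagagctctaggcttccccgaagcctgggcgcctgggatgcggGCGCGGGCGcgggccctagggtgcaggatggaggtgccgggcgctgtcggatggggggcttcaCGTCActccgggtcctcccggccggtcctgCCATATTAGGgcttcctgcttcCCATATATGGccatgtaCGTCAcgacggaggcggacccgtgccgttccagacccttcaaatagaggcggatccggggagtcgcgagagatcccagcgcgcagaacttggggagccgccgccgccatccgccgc
EGR2: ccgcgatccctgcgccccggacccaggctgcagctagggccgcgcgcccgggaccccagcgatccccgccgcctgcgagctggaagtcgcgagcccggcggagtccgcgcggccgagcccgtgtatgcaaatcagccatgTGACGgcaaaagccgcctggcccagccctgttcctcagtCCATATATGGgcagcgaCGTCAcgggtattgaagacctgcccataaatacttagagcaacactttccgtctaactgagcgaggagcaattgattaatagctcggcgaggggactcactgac
FOS: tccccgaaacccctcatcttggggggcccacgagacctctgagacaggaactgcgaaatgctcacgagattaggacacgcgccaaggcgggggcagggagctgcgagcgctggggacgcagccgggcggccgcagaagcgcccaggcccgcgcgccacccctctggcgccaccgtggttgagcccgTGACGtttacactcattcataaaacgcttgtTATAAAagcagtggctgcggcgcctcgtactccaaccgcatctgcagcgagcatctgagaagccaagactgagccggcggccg
FOSB: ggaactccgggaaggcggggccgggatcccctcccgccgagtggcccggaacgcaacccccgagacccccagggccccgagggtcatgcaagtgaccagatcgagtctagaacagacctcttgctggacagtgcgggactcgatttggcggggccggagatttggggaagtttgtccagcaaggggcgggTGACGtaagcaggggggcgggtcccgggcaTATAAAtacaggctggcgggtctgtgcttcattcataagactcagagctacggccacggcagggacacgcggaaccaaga

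Both printed EGR windows held a CArG box, EGR2 being shown at its only start with one. EGR1 had a CArG box from -105 to -96 and another from -83 to -74, counted from the start, and EGR2 had 1 from -71 to -62 at start 3 and none at the other starts. A CArG box occurred in 1.29% of the 35116 promoter windows. No other member's window matched it, although the serum response element of FOS is known to lie further upstream than this window reaches. FOS and FOSB shared a layout of a CRE core at -64 and -60 and a TATA box at -33 and -30, which JUNB had at -137 and -31. The CRE core occurred in 24.6% of all windows and the TATA box in 11.5%. The EGR site was found at -198 of EGR1 and at 9 of EGR2 start 2, against 9.43% of windows, and the AP-1 site at 5 of FOSL2, against 7.71%. In JUND, 2 CRE cores on opposite strands overlapped, at -200 and -197. These are matches of letters, not measured binding, and the gene counts do not show which EGR2 start was used. Whether any match goes with a change in level was not tested.

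**Figure D2:**
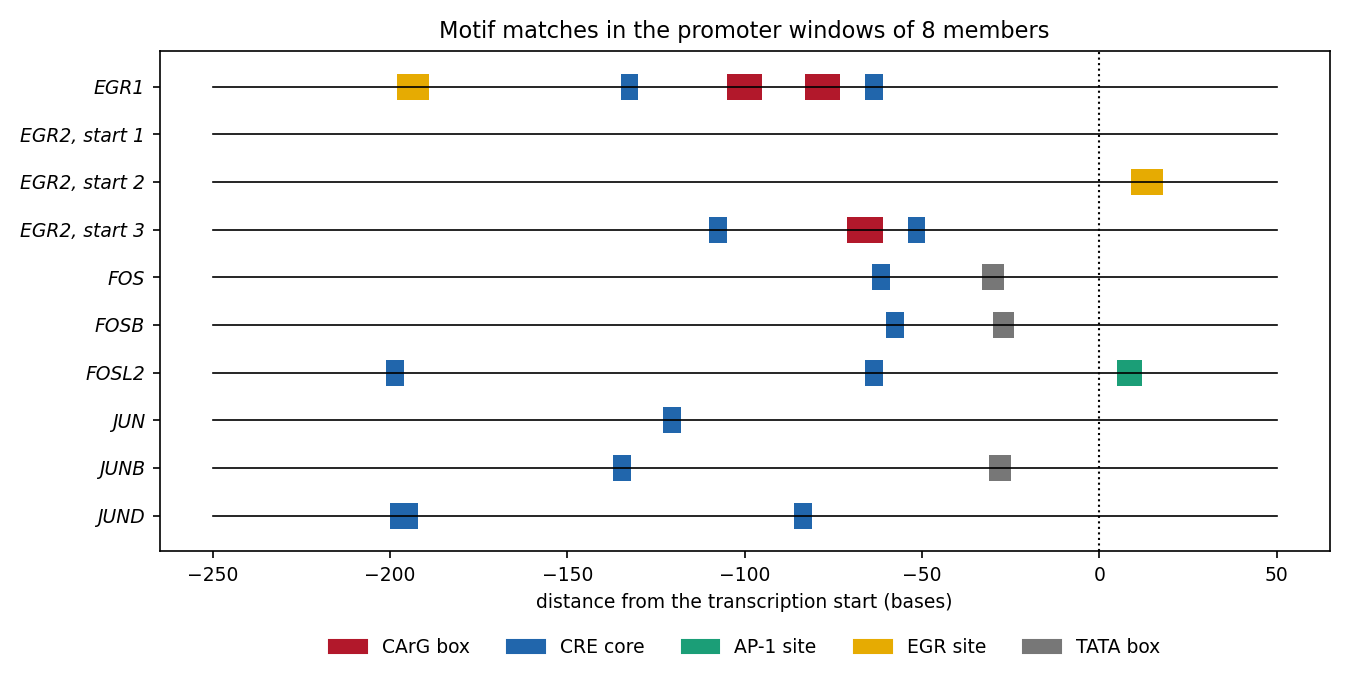
Motif matches on either strand (coloured boxes) along the promoter windows of 8 members, by distance from the transcription start in bases. CArG boxes appear in EGR1, at -105 and -83, and at EGR2 start 3, at -71.

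Among the FOS genes, FOSL1 fell most. FOSL1 encodes FRA1, a FOS protein without the transactivation domain of FOS whose gene and protein are both kept up by sustained ERK activity (ENSG00000175592, chromosome 11, 65892049 to 65900573). It was at 854, 662 and 716 in resistant libraries and at 2144, 2101 and 1992 in control libraries. All 3 resistant libraries were well below the controls, on average 2.79-fold. The log2 fold change was -1.49 ± 0.08 SE (limma adjusted p = 4.90e-13), within -1.62 to -1.41 over the other settings. FOS, the founding member (ENSG00000170345, chromosome 14, 75278774 to 75282230), moved far less. It was at 1519, 2072 and 2190.1 in resistant and 2416, 2301 and 2519 in control libraries. The groups did not overlap, but resistant library 1 was much lower than resistant 2 and 3. The log2 fold change of FOS was -0.34 ± 0.12 SE (limma adjusted p = 0.0406). Without resistant library 1 it was -0.18, still past the threshold. FOS no longer passed with control 1 left out (adjusted p = 0.0837), with control 3 left out (0.149), with quantile normalization (0.168), with limma-voom (0.0619), with limma without trend (0.179) and with no filter on low values (0.0832).

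FOSB, a FOS protein linked to lasting changes after repeated stimulation (ENSG00000125740, chromosome 19, 45467995 to 45475179), rose. It was at 316, 465 and 457 in resistant and 221, 187 and 255 in control libraries. Each resistant library was above all controls, with resistant 1 the closest to them. On the log2 scale the change was 0.89 ± 0.14 SE (limma adjusted p = 6.46e-05). The whole of FOSB overlaps ERCC1 on the opposite strand, which was at 175.6 to 207 in resistant and 169.6 to 208 in control libraries. FOSL2 encodes FRA2, a relative of FRA1 (ENSG00000075426, chromosome 2, 28392448 to 28417312). It was at 7363, 6548 and 6567 in resistant and 6889.7, 6524 and 6619 in control libraries. These values overlapped, with resistant 1 the highest, and the log2 fold change was 0.03 with a 95% interval of -0.10 to 0.16 (limma adjusted p = 0.743). FOSL2 shares part of its span with FLJ31356 on the opposite strand, which was at 9.18, 17.5 and 13.8 in resistant and 30.8, 22.9 and 27.0 in control libraries.

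Resistant library 1 differed from resistant 2 and 3 in opposite ways among members. It was below both in FOS and FOSB and above both in EGR1, EGR2, FOSL1, FOSL2, JUN, JUNB and JUND. For EGR3, with 3, 0 and 3 reads, resistant 1 and 3 did not differ in reads. Across all tested genes, library 1 was above both others for 38.9% and below both for 34.7%. Of 27 other early response genes, resistant 1 was above both for 12 and below both for 12. The next 3 genes, in which it was below both, were singled out after their values were seen. NR4A1, a nuclear receptor induced by serum, was at 272, 883 and 748 in resistant and 484, 447 and 436 in control libraries. NR4A2, its relative, was at 191, 634 and 633 in resistant and 153, 155 and 185 in control libraries. The heat shock gene HSPA1A was at 664, 1482 and 1321 in resistant and 1212, 1232 and 1088 in control libraries. None of these 3 passed the limma threshold (adjusted p = 0.696, 0.136 and 0.849). Of 8 heat shock genes that respond to handling, 1 was higher and 4 were lower, against 20.4% and 21.1% of all genes. Resistant 1 was below both others in HSPA1A, HSPA1B, HSPH1 and HSPA8. It was above both in DNAJB1, HSPB1 and BAG3, and between them in HSPE1. The median log2 change of the 8 heat shock genes was -0.30, and their summed levels were 26913 to 28939 in resistant against 31972 to 32939 in control libraries. Their part in the FOS and FOSB values was not tested.

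**Figure D3:**
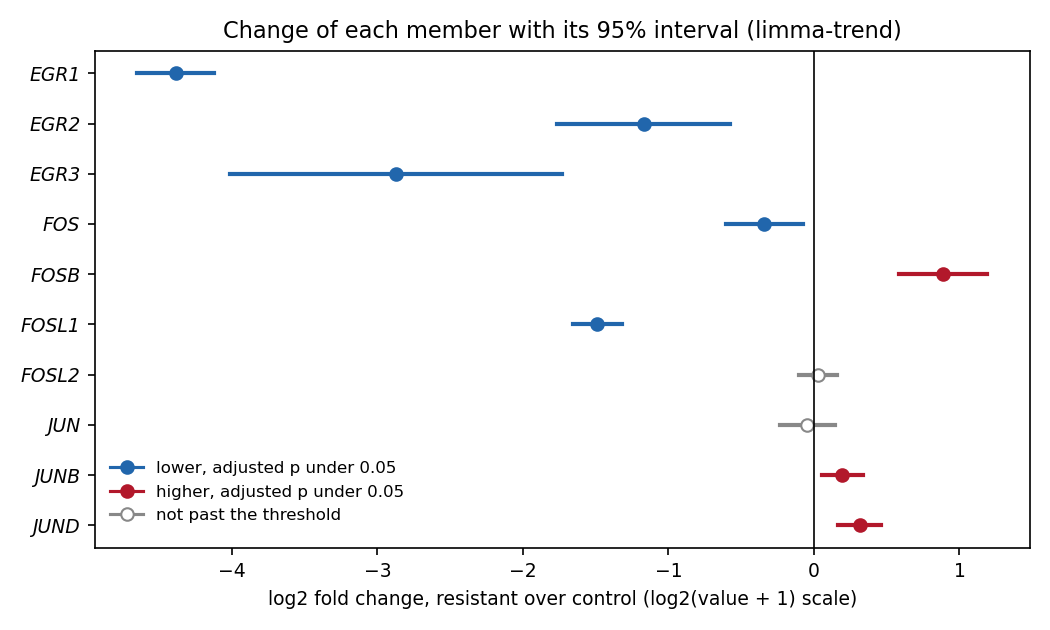
Log2 fold change, resistant over control, of each of the 10 genes (points) with its 95% interval from limma-trend (lines). EGR1, at -4.39, and FOSL1, at -1.49, lie far below 0, while the intervals of FOSL2 and JUN include 0.

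The JUN genes changed little. JUN, the partner in classic AP-1 and a target of JUN N-terminal kinases (ENSG00000177606, chromosome 1, 58780788 to 58784327), was at 5511, 4303 and 4216 in resistant and 4908, 5067 and 4421 in control libraries. Resistant library 1 was the highest of all 6 and the others the lowest, so the groups overlapped. The log2 fold change of JUN was -0.05 with a 95% interval of -0.24 to 0.14 (limma adjusted p = 0.728). Without resistant 1, JUN was called lower (-0.17, adjusted p = 0.00844). JUNB, which can oppose JUN and is itself an early gene (ENSG00000171223, chromosome 19, 12791496 to 12793315), was at 10762, 9496 and 9092 in resistant and 8611, 8935 and 8045 in control libraries. The groups were separate by a narrow margin, and the log2 fold change was 0.20 ± 0.07 SE (limma adjusted p = 0.0215). It was 0.12 without resistant 1, and JUNB no longer passed with control 1 (adjusted p = 0.0702) or control 3 (0.113) left out, nor with limma without trend (0.217). Quantile normalization gave a larger value, 0.33. JUNB lies wholly within the span of HOOK2 on the opposite strand, which was at 2299, 1853 and 1804 in resistant and 879, 877 and 763 in control libraries.

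JUND, the JUN gene with the steadiest expression across growth states (ENSG00000130522, chromosome 19, 18279760 to 18281622), was at 4416, 3735 and 3801 in resistant and 3403, 3228 and 2975 in control libraries. All resistant libraries were above all controls, by a log2 fold change of 0.31 ± 0.07 SE on average (limma adjusted p = 0.000958). Centring each library on its median moved the median of all genes by -0.13, a shift that bears on changes as small as these. On that scale JUND was at 0.18 (adjusted p = 0.0439), a smaller value by more than 1.5 times, and JUNB was no longer called (0.06, adjusted p = 0.482).

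The level per kilobase of exon gave a different order of members in each line. In resistant libraries the order was JUNB (5375 ± 479), JUND (2139 ± 201), JUN (1321 ± 204), FOSL2 (954 ± 65.0), FOS (595 ± 111), FOSL1 (394 ± 52.4), EGR1 (153 ± 31.5), FOSB (74.3 ± 15.1), EGR2 (6.98 ± 3.46) and EGR3 (0.413 ± 0.358). In control libraries JUNB (4687 ± 248) was followed by EGR1 (3163 ± 112), JUND (1719 ± 115), JUN (1356 ± 95.1), FOSL1 (1102 ± 41.5), FOSL2 (933 ± 26.5), FOS (745 ± 33.8), FOSB (39.8 ± 6.15), EGR2 (14.9 ± 1.78) and EGR3 (3.69 ± 1.08), all SD with n = 3. No neighbours in either order overlapped in their ranges. EGR1 thus ranked 7 in resistant and 2 in control libraries, and FOSL1 ranked 6 in resistant and 5 in control libraries.

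Within the FOS family, the share of FOSL1 was lower and that of FOSL2 higher in the resistant line. FOSL1 made up 19.5 ± 2.63% of the summed FOS family level per kilobase in resistant and 39.1 ± 1.31% in control libraries. FOSL2 made up 47.3 ± 3.50% in resistant and 33.1 ± 0.247% in control libraries, although its own level did not pass the test. FOSB made up 3.68 ± 0.740% in resistant and 1.41 ± 0.214% in control libraries. FOS took 29.5 ± 5.31% in resistant and 26.4 ± 1.15% in control libraries, and the gap was smaller than the spread between resistant libraries. The sum itself was 2017 ± 34.4 in resistant and 2819.5 ± 59.2 in control libraries (SD, n = 3 each throughout). In the JUN family JUNB held 60.9 ± 0.881% in resistant and 60.4 ± 0.731% in control libraries. JUND held 24.2 ± 0.531% in resistant and 22.1 ± 0.779% in control libraries, and JUN 14.9 ± 0.797% in resistant and 17.5 ± 0.271% in control libraries. The JUN sum was 8835 ± 877 in resistant and 7761 ± 434 in control libraries. Shares follow from the member values given above, are of transcripts and not of protein, and were not tested.

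**Figure D4:**
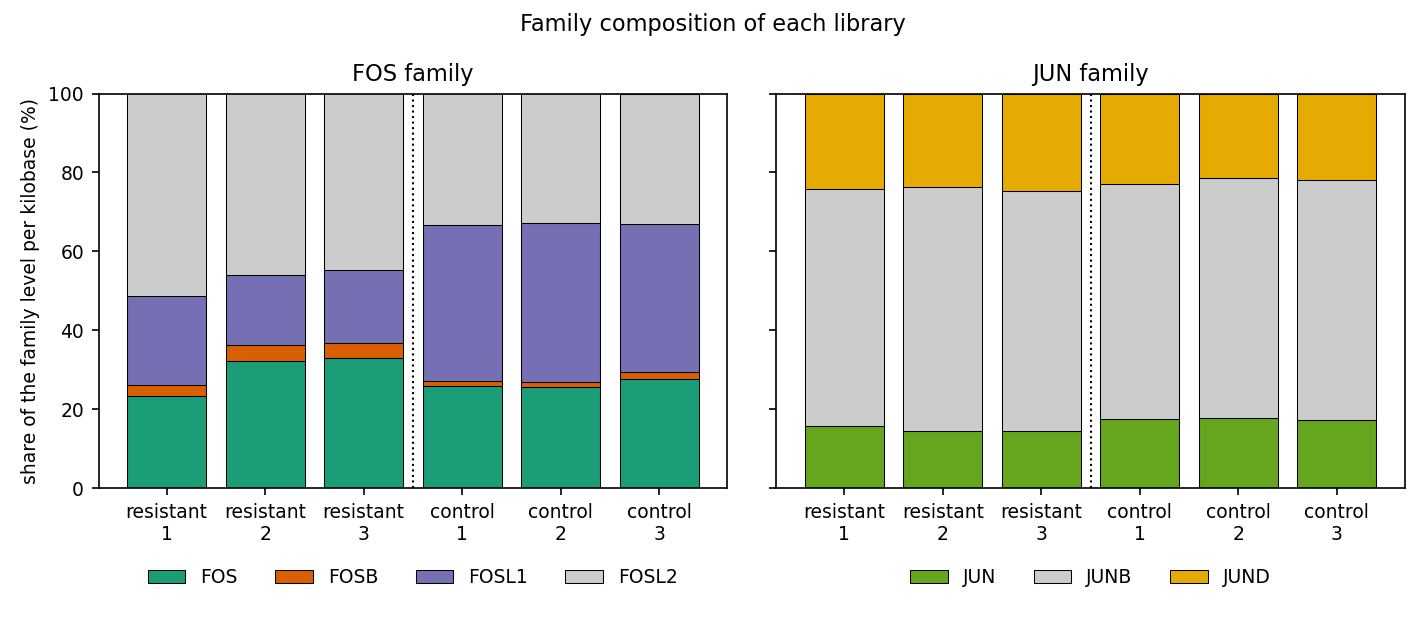
Share of each member in the summed level per kilobase of the FOS family (left) and the JUN family (right) in percent, for 3 resistant and 3 control libraries. The FOSL1 segment is about 19.5% in resistant and 39.1% in control libraries, while the JUN family segments are nearly level.

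Among the genes whose profile over the 6 libraries was most like that of EGR1 were ACSS1 and EPCAM. Likeness was the root mean square distance between mean-centred log2(value + 1) profiles, among 10653 protein-coding genes with a mean of at least 100. ACSS1, a mitochondrial acetyl-CoA synthetase, lay at a distance of 0.20 log2 units, and EPCAM, an epithelial adhesion molecule, at 0.22. ACSS1 was at 22.4, 17.5 and 17.8 in resistant and 322, 356 and 304 in control libraries. EPCAM was at 17.3, 15.7 and 19.7 in resistant and 391, 353 and 391 in control libraries. Both were far lower in every resistant than in any control library, which follows from the search for profiles like that of EGR1. They reached the mean of 100 only through the control libraries.

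Other early response genes did not follow EGR1 as a class. Of 27 tested, 7 were lower and 9 higher, against 21.1% and 20.4% of all genes. Their median log2 fold change was 0.14, against a median of 0.01 over all genes tested. IER2, a regulator of transcription, fell to 1689 ± 98.9 in resistant libraries, against 4031 ± 100.2 in control libraries (log2 fold change -1.26). RHOB, a small GTPase, fell by 0.82 on the log2 scale. ATF3, a stress-induced factor of the same zipper class, rose to 5384 ± 725 in resistant libraries, against 1016 ± 37.2 in control libraries (2.40), and BTG2, an antiproliferative p53 target, rose to 87.7 ± 17.7 in resistant libraries, against 32.7 ± 3.73 in control libraries (1.38). Each of the 4 passed the limma threshold.

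Among 11 tested dimer partners and competitors of FOS and JUN, 7 rose and 1 fell, against 20.4% and 21.1% of all genes. The median was 0.32. MAF, a large MAF protein that can pair with FOS or JUN, averaged 107 ± 40.6 in resistant and 11.4 ± 1.07 in control libraries (log2 fold change 3.07, limma adjusted p = 1.53e-09). ATF3 was the other leading rise. BATF2, which pairs with JUN proteins, fell to 131 ± 8.86 in resistant libraries, against 254 ± 25.5 in control libraries.

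Genes upstream of the family changed in both directions, as did all tested genes, of which 21.1% were lower and 20.4% higher. SRF, which binds the CArG box, was named for that reason and not by its value. It averaged 1249 ± 78.6 in resistant and 1279 ± 70.2 in control libraries (log2 fold change -0.03, 95% interval -0.18 to 0.12, limma adjusted p = 0.746). Of 7 factors that act on early promoters, 3 fell, ELK3 (-0.63), MRTFB (-0.33) and ELK1 (-0.29), and 1 rose, MRTFA (0.24), with a median of -0.03. ELK1 and ELK3 are partners of SRF that ERK phosphorylates. The MRTFB call was lost with limma without trend (adjusted p = 0.0947). The MRTFA call was lost without resistant 2 (adjusted p = 0.0941) or resistant 3 (0.0679), without control 1 (0.0519) or control 3 (0.0897), with median centring (0.10, adjusted p = 0.34) and with limma without trend (0.154). Of 14 upstream kinases, 6 rose and 3 fell, with a median of 0.06. RPS6KA4, which encodes the kinase MSK2, fell to 800.3 ± 61.9 in resistant libraries, against 1443 ± 95.4 in control libraries. MAPK9 (JNK2) fell by 0.61 and MAP2K4, a kinase of JNK, by 0.20. The MAP2K4 call was lost without resistant 2 (adjusted p = 0.107), control 2 (0.0734) or control 3 (0.135), with quantile normalization (-0.13, adjusted p = 0.18), with DESeq2 (0.0509) and with limma without trend (0.14). Median centring put it at -0.33. MAPK10 (JNK3), at 27.8 ± 4.98 in resistant and 12.1 ± 2.35 in control libraries, and RPS6KA1 (RSK1), at 806 ± 3.34 in resistant and 565 ± 12.7 in control libraries, rose most.

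NAB2, a corepressor that EGR1 induces and that binds EGR proteins, fell to 619 ± 87.1 in resistant libraries, against 788 ± 45.5 in control libraries (log2 fold change -0.36, limma adjusted p = 0.00263). The NAB2 call was lost by limma without trend (adjusted p = 0.0954). Of 7 EGR corepressors and JUN turnover factors, NAB2 and COPS5 fell and 5 did not pass, with a median of -0.05. Over all genes, 21.1% fell and 20.4% rose. COPS5, which binds JUN, fell by 0.26, a call lost without control 3 (adjusted p = 0.107), by limma without trend (0.124) and after quantile normalization (0.0615). With median centring COPS5 was at -0.39.

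Known EGR1 targets split. Of 15 tested, 7 rose and 5 fell, against 20.4% and 21.1% of all genes, and the median log2 change was 0.19. VEGFA, the vascular growth factor, was at 24499, 15756 and 15481 in resistant and 7577, 7199 and 7174 in control libraries. PDGFB, a platelet-derived growth factor chain, averaged 489 ± 111 in resistant and 199 ± 7.18 in control libraries. Among the genes that fell were CD44 (-1.04), TNF (-0.61), TGFB1 (-0.44) and NAB2 (-0.36). TNF overlapped between the groups, at 31.6, 64.6 and 57.2 in resistant and 77.0, 87.3 and 62.6 in control libraries. Its call was lost without resistant 1 (-0.30, adjusted p = 0.244), control 1 (adjusted p = 0.109) or control 2 (0.173), with edgeR (0.0558) or DESeq2 (0.092) on recovered reads, with a pseudocount of 0.1 (0.0582) and with limma without trend (0.206).

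By number of genes, known AP-1 targets were mostly lower. Their summed level was higher, at 114550 to 181160 in resistant and 100750 to 101810 in control libraries. That sum is weighted to the genes with the highest values. Of 26 tested, 18 fell and 5 rose, against 21.1% and 20.4% of all genes. The list was chosen with earlier results of these data known, so this count is not an independent test. Among the falls, MMP1, MMP3, MMP10, MMP13 and SPP1 met the filter on low values by the control libraries alone. These 5 could not have been counted as rises. MMP1, MMP3 and MMP13 each had a stray resistant value of 1 or more, which the filter did not need. The median log2 fold change of the 26 targets was -0.73. It was -0.65 with the 5 genes at 3 or fewer reads in a group set to a floor of 3 reads per library. MMP1 and MMP13, collagenases whose promoters are textbook AP-1 targets, were nearly absent from resistant libraries. MMP1 had 2 reads over the resistant and 770 over the control libraries, a depth-scaled ratio of 0.00251 (95% exact interval 0.000303 to 0.0091). MMP13 had 3 reads over the resistant and 704 over the control libraries, a ratio of 0.00412 (0.000847 to 0.0121). Among the genes that rose were MMP7, a matrilysin with 43 reads over the resistant and 10 over the control libraries, CCL2, VEGFA and IL6. CCL2, a chemokine, averaged 4067 ± 713 in resistant and 1420 ± 56.1 in control libraries, and IL6, a cytokine, averaged 5749 ± 247 in resistant and 2991 ± 266 in control libraries. The lists overlap: VEGFA, CD44 and TGFB1 stand in both target lists. ATF3 and MAFF stand among both the other early response genes and the dimer partners. SRF is in the early response and upstream factor lists, and NAB2 is in the corepressor and EGR1 target lists.

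Output and feedback genes of the ERK pathway fell alongside EGR1 and FOSL1. FOS, the other readout named above, had a log2 fold change of only -0.34, a call lost in 6 of the 16 other settings. Of 12 output and feedback genes, 11 fell at the limma threshold, against 21.1% of all genes, and SPRED3 did not pass. This list too was chosen with earlier results of these data known, so the count is not an independent test. The median log2 fold change was -1.03. SPRY4, a feedback inhibitor of receptor signalling, averaged 44.5 ± 5.86 in resistant and 465 ± 36.8 in control libraries (log2 fold change -3.36), and DUSP6, a phosphatase that acts on ERK, fell by 2.75.

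**Figure D5:**
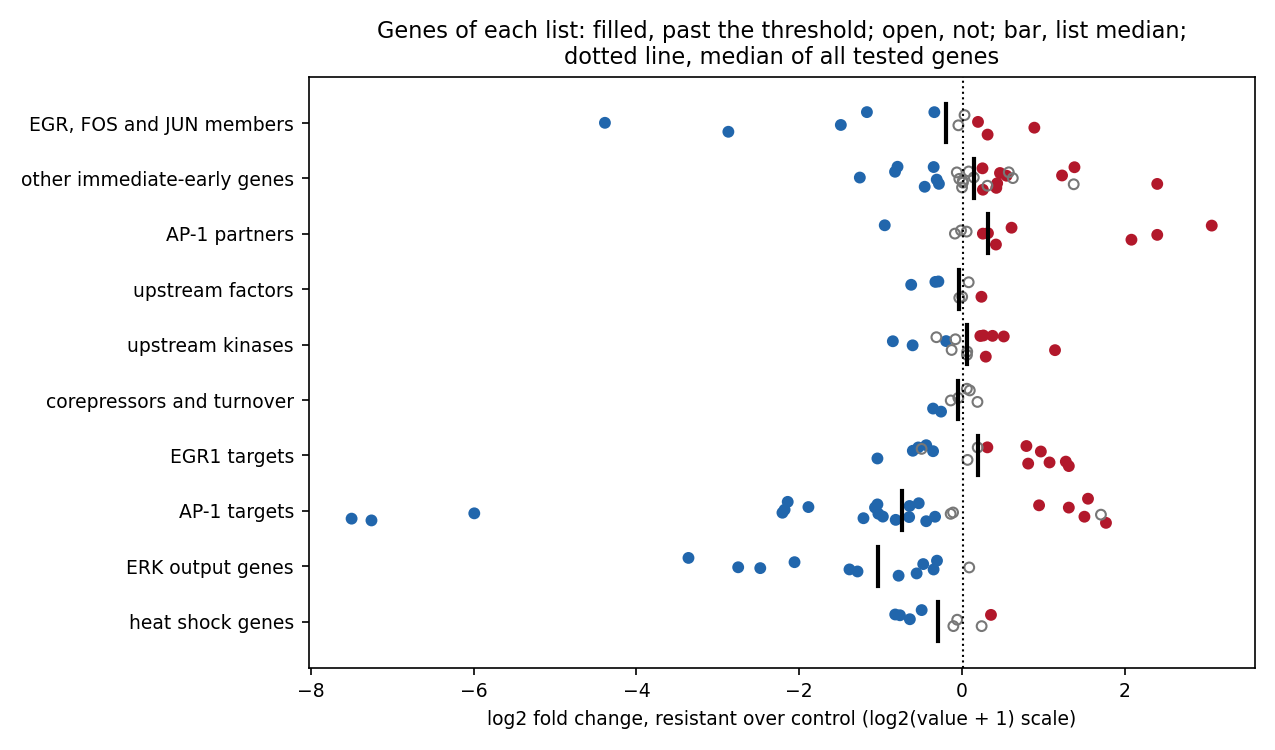
Log2 fold change, resistant over control, of the tested genes of 10 lists (points, filled where past the limma threshold), with a bar at each list's median and a dotted line at the median of all genes, 0.01. The ERK output list has its median at -1.03 and the AP-1 target list at -0.73, while the list of other early genes has its median at 0.14 and runs from -1.26 to 2.40.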

How the data were processed

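The authors deposited, for each of 6 libraries, a table of 30330 Ensembl genes with coordinates, exon length and a signal value. The build is GRCh38, per the submitters' processing notes. How reads were aligned, counted by strand and normalized is not given in the sources used here. Dividing the deposited signal by the worth of 1 read, found for each library, gave whole reads for 100% of values (tolerance 0.001), 15174126 to 16588479 per library. Intervals on reads cover counting error only.

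Levels per kilobase divide values by the exon length (other unit, bases) that the authors list. Values were transformed as log2(value + 1), and the 24560 genes reaching 1 in 3 or more libraries were tested, resistant over control, with limma-trend (limma 3.58.1, R 4.3.3, robust, two-sided, Benjamini-Hochberg, threshold 0.05). Fold changes on this scale understate the change of genes with few reads. With 3 against 3 libraries an exact permutation test of 1 gene cannot go below 0.1, and none was used. Alternatives were edgeR 4.0.16 (10044 genes called, against 10204 by limma-trend), DESeq2 1.42.0 (8885) and limma-voom (10140) on recovered reads, quantile normalization, median centring, other filters and pseudocounts, no variance trend (7573), the replicate block and each library left out. The steps were tested on simulated data.

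The members and lists were chosen with earlier results of these data known, so their counts against all genes are not independent tests. Named were all members, the 2 strongest called genes per list and direction (all where 5 or fewer were called), and the 3 profiles nearest to EGR1, of which some are not reported here. Symbols came from a table that matched 30078 genes. Coordinates equalled those of GENCODE 29 (overlaps). Promoter windows are from RefSeq, GRCh38.p14. Listed genes that the files do not hold were not analysed here. No pair of libraries was close enough to count as 1.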

Additional observations from a re-analysis of the deposited data

How the results depend on the processing

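Over 16 other settings, the 44 followed genes gave 704 values, of which 657 kept direction and side of the threshold, 40 lost the call, 2 gained it and 5 changed sign. EGR1, EGR3, FOSB and FOSL1 kept their calls in all 16, and EGR2 and JUND in all but limma without trend (adjusted p = 0.0701 and 0.0877). That setting left 3 members lower and 1 higher. The calls gained were JUN without resistant 1 and FOSL2 with quantile normalization (0.15, adjusted p = 0.0331). The signs that changed were those of members not past the threshold: FOSL2 was at -0.10 with median centring and between -0.026 and 0.059 over single libraries left out, and JUN was at 0.036 with quantile normalization and between -0.17 and 0.024 over single libraries left out. Without division by exon length, the difference in share between resistant and control libraries was -1.70 percentage points for FOS (3.06 with division), -10.8 for FOSL1 (-19.5), 10.2 for FOSL2 (14.2), -3.74 for JUN (-2.56) and 1.49 for JUNB (0.483), because long and short genes then weigh differently. Same-numbered libraries did not deviate together over all tested genes (correlations of -0.001, 0 and 0.007). Genes with few reads count as much as others here, so this cannot settle whether the numbers pair the libraries. With the replicate block, 10175 genes were called, 5 members lower and 3 higher. Other causes were not tested. Depth limits EGR3, MMP1, MMP7 and MMP13.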
